A study of Mus musculus with 6 samples.

Results

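The genes described here are those of the calcitonin gene-related peptide (CGRP) and calcitonin signalling family. They were chosen by symbol: Calca and Calcb, the precursor genes of the peptides, Calcr and Calcrl, the receptors, and Ramp1, Ramp2 and Ramp3, the receptor activity-modifying proteins. All 7 were found in the authors' table of 27884 genes, and all 7 passed the filter on low counts that left 18640 genes for testing. The RNA came from the hypothalamic preoptic area (POA) of female NuTRAP::Pnoc-Cre mice aged 17 to 18 weeks. In these animals Cre made under Pnoc, the prepronociceptin gene, switches on an EGFP-tagged ribosomal protein. RNA bound to the tagged ribosomes was pulled down with an antibody against GFP (IP, 3 libraries) and compared with total RNA of the same tissue (input, 3 libraries). Every library, input included, carries the same genotype, and each replicate is a pool of punches from 3 animals. The IP covers all cells of the punch in which Pnoc-Cre acted and is no sorted cell type, and pooling averages over the animals of a pool.

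In neurons, splicing of the Calca transcript gives alpha-CGRP, whereas in thyroid C cells it gives calcitonin. Calcb gives beta-CGRP. The receptor proteins work in combination with the RAMPs. CALCRL with RAMP1 is the CGRP receptor, and CALCRL with RAMP2 or RAMP3 binds adrenomedullin. CALCR alone is the calcitonin receptor, and with a RAMP it binds amylin. The receptors act mainly through the stimulatory G protein and cyclic AMP. Calcr marks neurons of the medial preoptic area that take part in parental behaviour of mice.

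The sequences that set the limits of the ligand measurements are the last coding exons of Calca and Calcb, read from the mm39 genome at the coding spans of GENCODE M39. The first pair encodes CGRP, and capitals mark the bases that differ between the pair in their alignment. The calcitonin exon of Calca is shown because the deposited counts are sums over the gene and do not separate it from the CGRP exon.
Calca, CGRP exon, chr7:114231678-114231834, minus strand: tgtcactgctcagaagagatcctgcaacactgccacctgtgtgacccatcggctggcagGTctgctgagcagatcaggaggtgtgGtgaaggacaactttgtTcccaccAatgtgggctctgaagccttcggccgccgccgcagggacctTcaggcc
Calcb, CGRP exon, chr7:114321210-114321369, plus strand: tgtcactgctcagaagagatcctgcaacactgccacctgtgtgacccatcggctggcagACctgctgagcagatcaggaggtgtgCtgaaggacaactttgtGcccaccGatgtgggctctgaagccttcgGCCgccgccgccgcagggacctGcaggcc
Calca, calcitonin exon, chr7:114232840-114233020, minus strand: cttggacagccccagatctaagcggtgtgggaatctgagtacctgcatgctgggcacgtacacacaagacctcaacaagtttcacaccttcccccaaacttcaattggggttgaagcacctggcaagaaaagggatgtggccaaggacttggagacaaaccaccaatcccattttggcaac
The CGRP exons were identical at 151 of 160 aligned positions (94.4%), with 6 mismatches and a gap of 3 bases inside a run of repeats, where its place is arbitrary. The longest run shared by any Calca and any Calcb transcript was 61 bases, shorter than the reads of 75 bases, so that no whole read of an annotated transcript matches both genes without a mismatch. How the authors' counting treated reads that align to both is not given in the sources used here. Of 14 Calca transcripts in GENCODE M39, 6 use the CGRP exon in their coding sequence and 3 the calcitonin exon.

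Of the 7 genes, Calca was higher in IP than in input, Ramp1 and Calcrl were lower, and 4 did not pass at an adjusted p under 0.05 (quasi-likelihood test of edgeR, adjusted over all genes tested). The 3 genes called of 7 stand beside 30.0% of all genes tested that were called in either direction, 12.9% higher and 17.1% lower. Their median log2 fold change was 0.14, against -0.07 over all genes tested. IP and input libraries did not overlap for 3 of the 7 genes, 1 with IP higher and 2 with IP lower, beside 47.7% of all genes (21.7% higher and 26.0% lower). IP lay on the same side of its own input in all 3 pools for 4 of the 7, higher for Calca and Ramp3 and lower for Calcrl and Ramp1, beside 62.5% of all genes (29.0% higher and 33.5% lower). DESeq2 called the same 3 genes, beside 30.5% of the 21911 genes it tested (13.3% higher and 17.3% lower). Shares of this size do not set the 7 genes apart from the rest of the table, and the genes are therefore described singly. IP and input of the same replicate come from the same pool of tissue. With that pool as a block in the model, Ramp3 was also called higher, making 4 of 7 called beside 34.6% of all genes (15.2% higher and 19.4% lower). Between pools of bulk RNA, fewer cells of a type and less RNA per cell cannot be told apart. Between IP and input of the same pool, which cells carried the tag and how much of their RNA was on tagged ribosomes cannot be told apart either.

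**Figure D1:**
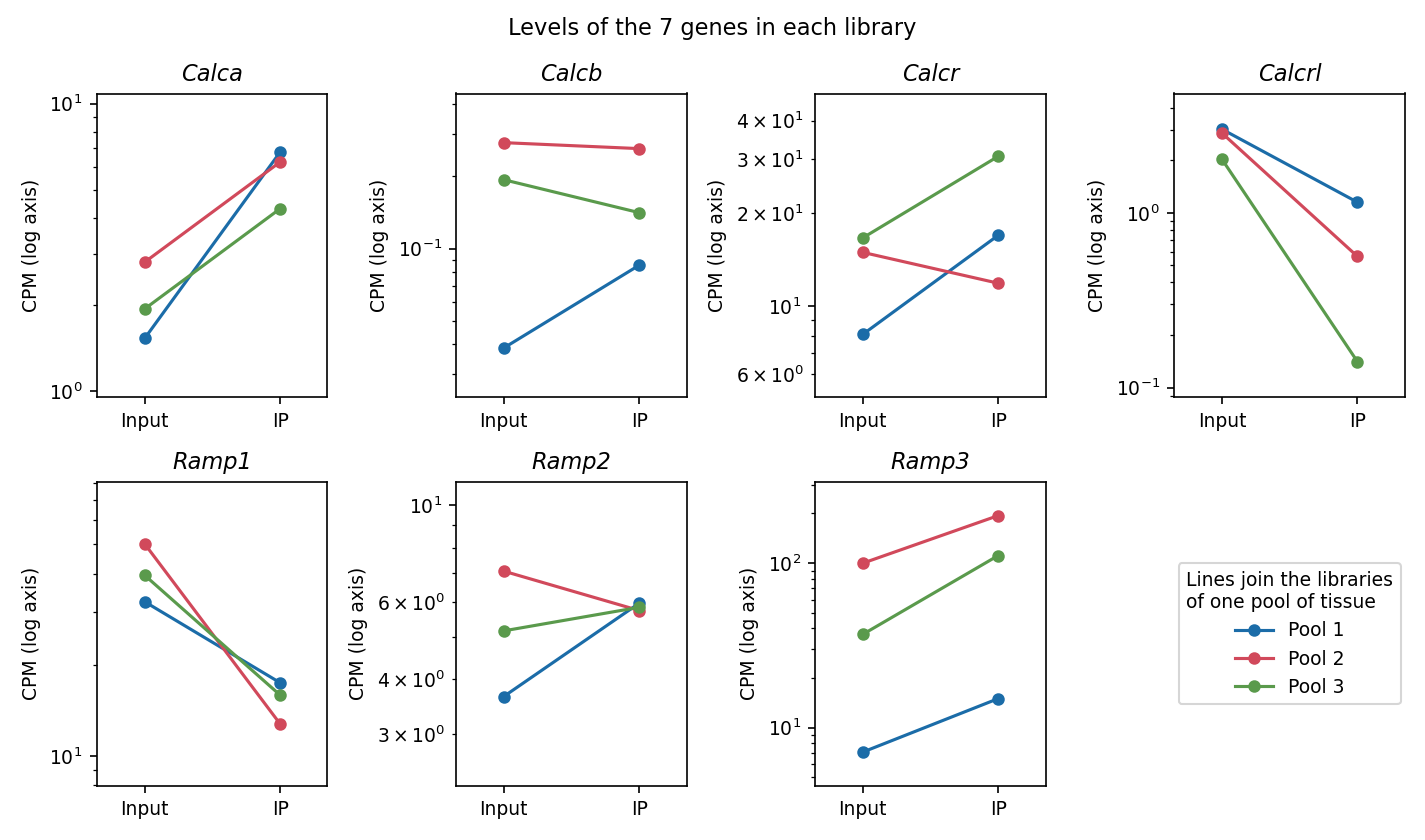
Library-scaled counts (CPM, log axis) of each of the 7 genes in the input and IP libraries, with a line joining the 2 libraries of each pool. Calca is higher and Calcrl and Ramp1 are lower in IP in every pool, whereas Ramp3 differs more between pools than between IP and input.

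Over all genes, total counts ran from 48204567 to 53056642 over the 6 libraries, so that depth was alike. Pnoc, which checks the labels, had 47.7, 43.1 and 41.1 CPM in IP replicates 1 to 3 against 7.51, 11.0 and 13.2 CPM in input. All 8 astrocyte, 8 microglial and 8 oligodendrocyte markers were lower in IP, as were 5 of 6 markers of oligodendrocyte precursors, 3 of 5 of leptomeningeal fibroblasts, 2 of 6 of striatal projection neurons and 1 of 6 of choroid plexus. Higher in IP were 4 of 7 GABAergic and 5 of 10 pan-neuronal markers, and 2 of 8 markers of medial preoptic neurons, Gal and Nts. These counts stand beside 12.9% of all genes tested called higher and 17.1% called lower, and 1 of 6 for choroid plexus is near that share. With the pool as a block 5 of 6 striatal and 3 of 6 choroid plexus markers were lower, and DESeq2 called 0 choroid plexus markers. The block also gave 6 of 10 pan-neuronal markers higher and 1 lower, and 3 of 8 preoptic markers higher. Over all genes 15.2% were higher and 19.4% lower with it. None of 3 glutamatergic markers was called by edgeR (0 with an unadjusted p under 0.05, 0 by DESeq2).

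Calca, the alpha-CGRP and calcitonin precursor gene (ENSMUSG00000030669, chromosome 7, 114230713 to 114235592, minus strand, mm39), had 318, 289 and 214 counts in IP replicates 1 to 3 and 79, 153 and 100 counts in input. In CPM scaled by edgeR's TMM factors this was 6.78, 6.27 and 4.31 in IP and 1.53, 2.81 and 1.93 in input. The lowest IP library lay above the highest input library. Calca rose by 1.47 ± 0.33 (SE) on the log2 scale, a 2.77-fold difference (adjusted p = 0.0128, edgeR). Within the pools the ratio of IP to input was 4.44, 2.23 and 2.23. Without input replicate 3 the change was 1.45 but the adjusted p became 0.054, and without both libraries of pool 1 or of pool 3 it was 1.16 and 1.59 (adjusted p = 0.052 and 0.093, edgeR). With the pool as a block Calca stood at 1.48 ± 0.34 (SE, adjusted p = 0.00692, edgeR). It kept its call with the block and without any one pool, in settings added after the values were seen.

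Calcb, the beta-CGRP gene (ENSMUSG00000030666, chromosome 7, 114317878 to 114322600, plus strand), was close to the limit of detection. It had 4, 12 and 7 counts in IP and 2, 15 and 10 counts in input, where a count of 3 corresponds to 0.0551 to 0.0651 CPM. The groups overlapped, and the change of -0.06 ± 0.97 (SE; adjusted p = 0.97, edgeR) has an error too wide to give a direction. By FPKM, counts scaled to gene length and library depth, Calca made up from 94.8% to 98.4% of the summed Calca and Calcb level in IP and from 88.2% to 96.7% in input. In each pool it was higher in IP than in input, but the groups overlapped (exact permutation p = 0.3, two-sided, n = 3 per group), and 3 against 3 cannot give a p under 0.1. The permutation test, here and below, took no account of the pairing by pool, so its p includes the spread between pools.

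The other ligands of these receptors were low and varied between pools. Adm, the adrenomedullin gene, had 1.30, 5.07 and 2.16 CPM in IP and 0.773, 2.70 and 1.49 CPM in input. In each pool IP was higher, by 1.68, 1.88 and 1.45-fold, yet the groups overlapped and the change of 0.78 ± 0.62 (SE) was not called (adjusted p = 0.38, edgeR). Iapp, the amylin gene, had 0, 16 and 161 counts in IP and 2, 4 and 26 counts in input. Most of its reads came from pool 3, in IP as in input. Its change of 2.54 ± 1.62 (SE; adjusted p = 0.27, edgeR) turned to -0.23 without IP replicate 3. Of these 2 ligands tested 0 were called by edgeR (0 with an unadjusted p under 0.05, 0 by DESeq2), beside 30.0% of all genes tested. Adm2 was not found under that symbol among the authors' genes and could not be tested.

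Calcr, the calcitonin receptor (ENSMUSG00000023964, chromosome 6, 3685680 to 3764714, minus strand), was present in every library. It had 17.0, 11.8 and 30.6 CPM in IP and 8.07, 14.9 and 16.6 CPM in input. The groups overlapped, since IP replicate 2 lay below the input of its own pool while the other two pools had ratios of 2.10 and 1.84. The change was 0.58 ± 0.38 (SE; adjusted p = 0.28, edgeR) without the block and 0.55 ± 0.26 (SE; adjusted p = 0.14, edgeR) with it. Its direction thus rested on pools 1 and 3: with the block and without both libraries of pool 2 the change was 1.01 ± 0.22 (SE; adjusted p = 0.00285, edgeR), a setting chosen after the values were seen. Pool 3, where Calcr was highest, also held most of the Iapp reads.

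Calcrl, the receptor for CGRP and adrenomedullin (ENSMUSG00000059588, chromosome 2, 84160970 to 84255755, minus strand), was the less abundant receptor. It had 54, 26 and 7 counts in IP and 156, 156 and 105 counts in input, or 1.15, 0.564 and 0.141 against 3.01, 2.87 and 2.03 CPM. Every IP library lay below every input library, and the IP libraries differed among themselves by 8.16-fold. Calcrl fell by 2.09 ± 0.67 (SE) on the log2 scale, a 4.25-fold difference (adjusted p = 0.0471, edgeR). That call was kept without IP replicate 1 and lost without any other single library (adjusted p from 0.064 to 0.13, log2 fold changes from -2.20 to -1.61, edgeR). It was also lost without both libraries of pool 2 or of pool 3 (-1.92 and -1.77, adjusted p = 0.21 and 0.12, edgeR). With the block the change was -2.42 ± 0.59 (SE; adjusted p = 0.00946, edgeR). Calcrl was also called with the block and without any one pool, at -3.01, -2.43 and -1.85, in settings added after the values were seen.

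Calcrl is known from blood vessels, and vessel markers were lower in IP too. Of 12 endothelial markers 8 were lower and 1, Egfl7, was higher, with a median log2 fold change of -2.35. This count and that of the mural markers below stand beside 17.1% of all genes tested called lower and 12.9% called higher. For Cldn5, which encodes a tight junction protein, the log2 fold change was -2.16 ± 0.36 and for Slco1a4, a transporter of the blood-brain barrier, it was -3.04 ± 0.43 (SE). The summed CPM of the 12 ran from 22.6 to 28.7 in IP and from 28.8 to 46.0 in input, and Egfl7 alone gave 16.8 to 22.3 CPM of the IP sums. Of 8 mural cell markers tested 5 were lower, among them Rgs5 at -2.08 ± 0.19 and Vtn at -2.77 ± 0.27 (SE), with a median of -2.29. The summed CPM of the mural list was at most 13.0 in IP and 56.9 to 75.2 in input. No endothelial marker was at 0 in any library, while Kcnj8, Abcc9 and Myh11, of the mural list, were each at 0 in 1 IP library. The part of vessel cells in the fall of Calcrl was not tested.

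Ramp1, the partner of CALCRL in the CGRP receptor (ENSMUSG00000034353, chromosome 1, 91107544 to 91152918, plus strand), had the smallest adjusted p of the 7 genes without the pool as a block. With the block that of Ramp3 was smaller. It had 17.5, 12.8 and 15.9 CPM in IP and 32.3, 50.2 and 39.5 CPM in input, with a wide gap between the groups. Ramp1 fell by 1.40 ± 0.20 (SE) on the log2 scale, a 2.65-fold difference (adjusted p = 0.00197, edgeR), and input exceeded IP by 1.85, 3.93 and 2.49-fold in the pools. Its call was kept without any single library, with log2 fold changes from -1.54 to -1.19, but not without both libraries of pool 3 (-1.45, adjusted p = 0.064, edgeR), when only 133 genes of the whole table were called higher and 742 lower. With the block and without pool 3 it was called, at -1.43 (adjusted p = 0.00356, edgeR), a setting added after the values were seen. The summed CPM of 8 astrocyte markers, all lower in IP, ran from 95.0 to 137 in IP and from 933 to 1037 in input. All 8 microglial and 8 oligodendrocyte markers were lower too, as were 5 of 6 of oligodendrocyte precursors and 5 of 8 mural markers. Over all genes tested 17.1% were lower. The part of glial and mural cells in the level of Ramp1 was not tested.

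Ramp2, the partner of CALCRL in an adrenomedullin receptor (ENSMUSG00000001240, chromosome 11, 101136854 to 101150372, plus strand), was steady. It had 5.97, 5.75 and 5.84 CPM in IP, a spread of 1.04-fold, and 3.65, 7.07 and 5.16 CPM in input. All IP values lay inside the input range, and the change was 0.14 ± 0.28 (SE; adjusted p = 0.73, edgeR). While Calcrl and 8 endothelial markers fell, Ramp2 thus showed no called change, and the log2 ratio of Ramp2 to Calcrl was 2.94, 3.91 and 5.94 in IP against 0.84, 1.87 and 1.91 in input (exact permutation p = 0.1, two-sided, n = 3 per group, the smallest that 3 against 3 can give). In GENCODE M39, 28.5% of the exon bases of Ramp2 are shared with exons of Vps25 on the same strand. Vps25 itself was listed with 0 to 23 counts per library, so the counts of these overlapping genes cannot be told apart and the level of Ramp2 is uncertain. The same holds for its steadiness, its comparison between IP and input and its ratio to Calcrl. It also holds for its share among the RAMPs and its place in the order of FPKM levels, given below.

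Ramp3, which makes adrenomedullin or amylin receptors with CALCRL or CALCR (ENSMUSG00000041046, chromosome 11, 6608521 to 6627475, plus strand), was the most variable of the 7. It had 15.0, 194 and 111 CPM in IP and 7.09, 99.8 and 36.8 CPM in input. Pool 1 was low and pool 2 high in both kinds of library, so that the highest input library exceeded the lowest by 14.1-fold and the groups overlapped. Without a term for the pool the change of 1.16 ± 0.97 (SE) was not called (adjusted p = 0.41, edgeR). Within the pools IP exceeded input by 2.11, 1.95 and 3.01-fold. With the pool as a block the change was 1.21 ± 0.16 (SE), a 2.32-fold difference (adjusted p = 0.000362, edgeR). It was called with the block without any one pool as well, at 1.27, 1.38 and 1.02 (adjusted p from 4.46e-07 to 0.00759, edgeR), settings added after the values were seen. With 2 libraries per group such fits measure little spread themselves, and their p-values lean on spread taken from other genes. In GENCODE M39, 7.27% of the exon bases of Ramp3 overlap an antisense gene, and whether counting used strand is not given in the sources used here.

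**Figure D2:**
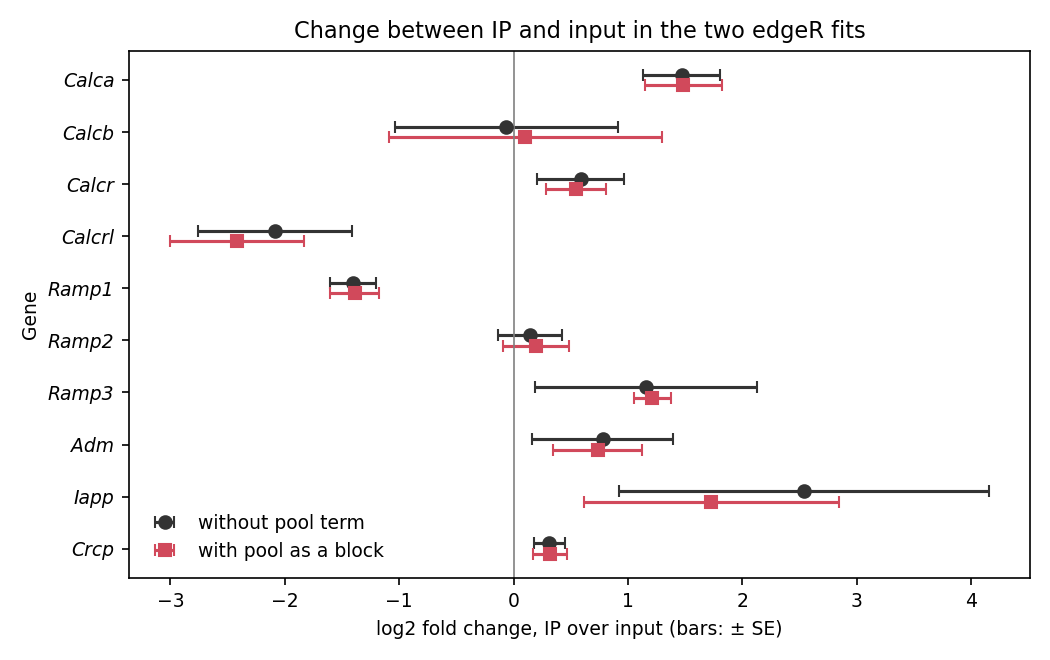
Log2 fold change of IP over input (x axis, bars ± SE) of the 7 genes and of Adm, Iapp and Crcp, from edgeR without (black circles) and with (red squares) the pool as a block. For Ramp3 the estimate barely moves, from 1.16 to 1.21, while its SE shrinks from 0.97 to 0.16.

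Ramp3 is strongly expressed in the thalamus, which lies near the POA, and markers of thalamic neurons varied between the pools in the same order. The summed CPM of 8 such markers (Prkcd, Tcf7l2, Lef1, Rora, Plekhg1, Synpo2, Tnnt1 and Rgs16, a list chosen after the values of Ramp3 were seen) was 270, 2255 and 1143 in IP replicates 1 to 3 and 203, 1266 and 779 in input. Pool 1 was lowest and pool 2 highest, as for Ramp3. None of the 8 was called without the block by edgeR (0 with an unadjusted p under 0.05, 0 by DESeq2), and 4 (Prkcd, Lef1, Tnnt1 and Rgs16) were called higher with it. Over all genes tested 30.0% were called in either direction without the block, and 15.2% were called higher and 19.4% lower with it. The median of the 8 with the block was 0.60 on the log2 scale. All 8 were detected in every library. The part of thalamic tissue in the level of Ramp3, and in its difference between IP and input, was not tested.

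**Figure D3:**
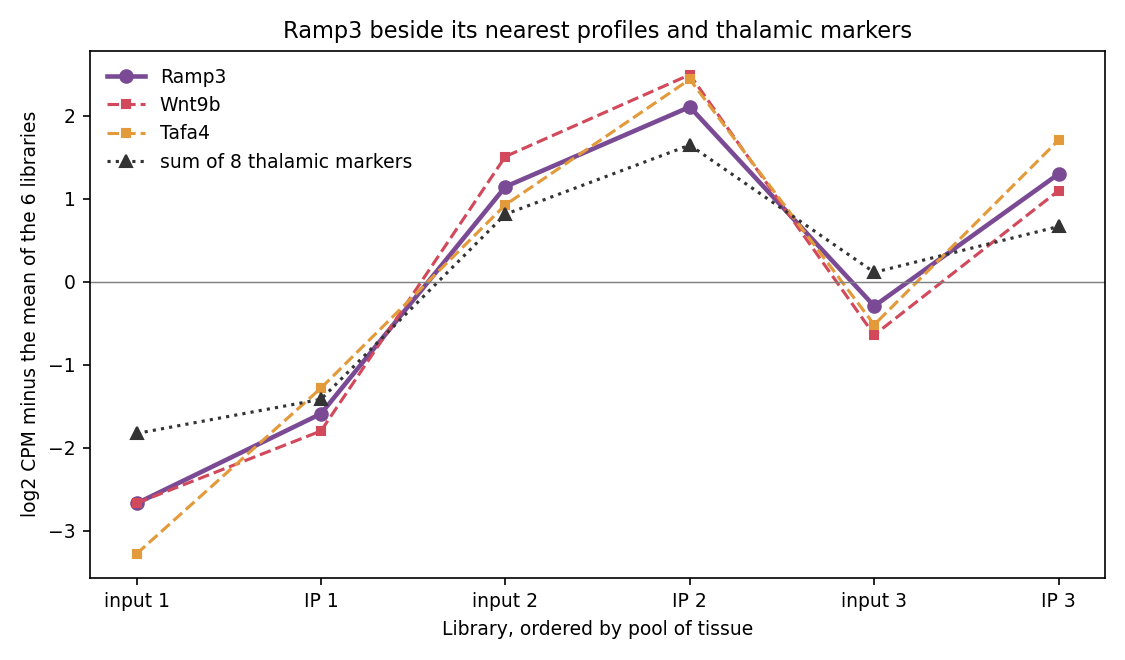
Log2 CPM of Ramp3, of Wnt9b and Tafa4 and of the sum of 8 thalamic markers, each minus its mean over the 6 libraries (y axis), with libraries ordered by pool (x axis). All 4 lines are lowest in pool 1 and highest in IP of pool 2, where Ramp3 had 194 CPM. Wnt9b and Tafa4 were picked as the profiles nearest to Ramp3, and the thalamic list after Ramp3 was seen. Their likeness to Ramp3 is therefore no separate result.

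Levels of different genes were set side by side as FPKM, the authors' values per kilobase of gene. In IP the order of the means was Ramp3 at 77.5 ± 65.2, Ramp1 at 5.08 ± 0.77, Calcr at 5.06 ± 2.50, Calca at 3.43 ± 0.76, Ramp2 at 1.77 ± 0.026, Calcb at 0.128 ± 0.071 and Calcrl at 0.126 ± 0.103 FPKM (SD, n = 3). Ramp1 and Calcr, Calcr and Calca, and Calcb and Calcrl overlapped in their ranges, and the lowest Ramp3 library (10.8 FPKM) lay above the highest Calcr library (7.86 FPKM). In input the order was Ramp3 at 34.2 ± 33.8, Ramp1 at 13.2 ± 3.01, Calcr at 3.32 ± 1.16, Ramp2 at 1.57 ± 0.52, Calca at 1.22 ± 0.39, Calcrl at 0.529 ± 0.103 and Calcb at 0.132 ± 0.094 FPKM (SD, n = 3). There the ranges of Ramp3 and Ramp1, of Calcr and Ramp2 and of Ramp2 and Calca overlapped. Calcrl stood above Calcb in every input library, and in IP they overlapped.

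The make-up of the RAMPs followed the pool. Ramp3 gave 58.9, 95.9 and 92.0% of the summed FPKM of the RAMPs in IP and 30.3, 79.4 and 64.6% in input. Ramp1 gave 31.3, 2.88 and 6.01% in IP and 63.2, 18.3 and 31.7% in input. In every pool the share of Ramp3 was higher, and that of Ramp1 lower, in IP, but the groups overlapped (exact permutation p = 0.3 for Ramp3 and 0.2 for Ramp1, two-sided, n = 3 per group). Since the permutation ignored the pools, these p-values include the spread between pools and do not measure the difference within them. Ramp2 gave from 1.19 to 9.80% in IP and from 2.35 to 6.53% in input (exact permutation p = 1).

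Of the receptors, Calcr gave most of the FPKM in every library. Its share of the summed Calcr and Calcrl level was 94.8, 96.3 and 99.6% in IP and 77.0, 86.7 and 91.1% in input. The groups did not overlap (exact permutation p = 0.1, two-sided, n = 3 per group, the smallest that 3 against 3 can give). Over the 11 shares and ratios compared the Benjamini-Hochberg adjusted p of this share was 0.28, and none of the 11 could pass in a design of this size. The 11 are not all separate comparisons. The share of Calcrl and the ratio of Calcr to Calcrl follow from the share of Calcr, and the share of Calcb from that of Calca.

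**Figure D4:**
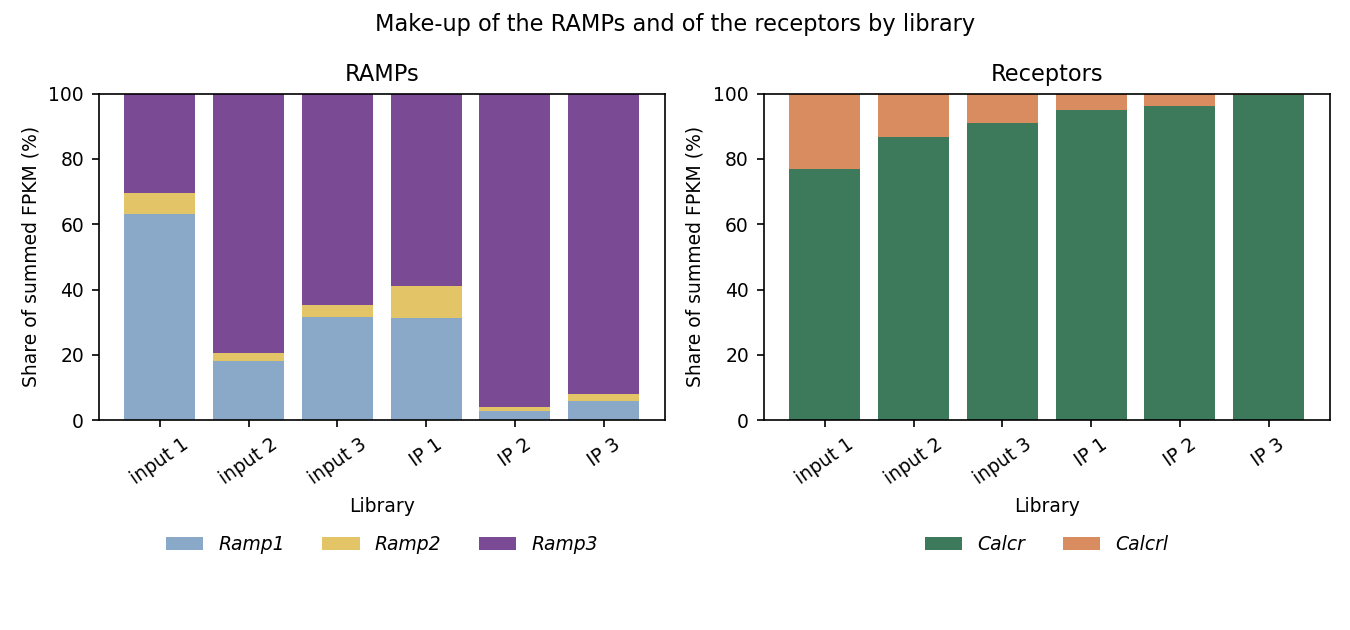
Share of each RAMP in the summed FPKM of the 3 RAMPs (left) and of Calcr and Calcrl in their sum (right) in each library, as stacked bars from 0 to 100%. Ramp1 is the largest RAMP share in the input of pool 1 only, at 63.2%, and the Calcrl share is smaller in every IP library than in any input library.

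Of 21 genes of stimulatory G protein and cyclic AMP signalling, 3 rose, 3 fell and 15 were not called, with a median of 0.078 on the log2 scale, beside 12.9% and 17.1% of all genes tested that were called higher and lower. These shares are near those of all genes and are no result about the list. The protein kinase A subunit genes Prkar1a and Prkaca rose by 0.48 ± 0.12 and 0.47 ± 0.14 (SE; adjusted p = 0.0178 and 0.0333, edgeR). Prkar2a, another regulatory subunit, rose by 0.39 ± 0.13 (SE; adjusted p = 0.0492, edgeR). Rapgef4, a cyclic AMP sensor that activates Rap, stood at -1.56 ± 0.33 (SE; adjusted p = 0.00933, edgeR) and the adenylyl cyclase gene Adcy9 at -2.60 ± 0.58 (SE; adjusted p = 0.0119, edgeR). Adcy3, another adenylyl cyclase gene, stood at -1.07 ± 0.30 (SE; adjusted p = 0.0295, edgeR). With library totals alone as the scaling none of the 3 rises was called, and the median of all genes moved from -0.07 to -0.17. Adcy9 had 22.9, 4.59 and 6.46 CPM in input, so that pool 1 was high, and 1.88, 2.08 and 1.65 CPM in IP. Without IP replicate 3 its adjusted p was 0.055, and without input replicate 1 its log2 fold change was -1.55 (adjusted p = 0.00934, edgeR). The call of Prkar1a was lost when IP replicate 1 or 2 was left out, and that of Prkaca when any IP replicate or input replicate 3 was.

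The accessory proteins were present in IP and input without a called difference, and most of their summed CPM was that of Crcp. The sum of the 3 genes ran from 48.9 to 50.9 CPM in IP and from 38.3 to 45.8 CPM in input. Ackr3 had at most 3.52 CPM in any library. Crcp, the CGRP receptor component protein, had 48.0, 47.4 and 48.9 CPM in IP and 34.2, 43.6 and 38.5 CPM in input. Its groups did not overlap, yet the change of 0.31 ± 0.14 (SE) was not called (adjusted p = 0.12, edgeR). Ackr3 and Gpr182, atypical receptors that have been linked to adrenomedullin, stood at -0.76 ± 0.54 and -0.31 ± 0.68 (SE; adjusted p = 0.33 and 0.77, edgeR). Of these 3 genes 0 were called by edgeR (1 with an unadjusted p under 0.05, 0 by DESeq2). Of 13 other class B receptors, the family of peptide receptors to which Calcr and Calcrl belong, 10 passed the filter, and 0 of these were called by edgeR (0 with an unadjusted p under 0.05, 0 by DESeq2), with a median of 0.03. With the pool as a block 1 of the 10 was called, Vipr1, a receptor of the peptide VIP, at -1.30 ± 0.39 (SE; adjusted p = 0.0246, edgeR). Sctr, the secretin receptor, did not pass the filter. It had 0, 0 and 4 counts in IP and 11, 7 and 85 counts in input, and DESeq2, run with no such filter, called it lower (adjusted p = 0.0129). The most abundant were Adcyap1r1, the receptor of the peptide PACAP, at -0.21 ± 0.17 (SE) and Glp1r, the receptor of glucagon-like peptide, at 0.71 ± 0.39 (SE). Of 4 peptide processing enzymes 1 was called, Pcsk1, a convertase of prohormones, at -0.52 ± 0.16 (SE; adjusted p = 0.0402, edgeR). With the block Cpe, a carboxypeptidase that trims prohormones, was called as well, at -0.47 ± 0.12 (SE; adjusted p = 0.0150, edgeR). Without the block Pcsk1 kept its call without input replicate 2 and lost it without any other single library (adjusted p from 0.065 to 0.14, edgeR). The counts called in these lists stand beside 30.0% of all genes tested called in either direction, and 34.6% with the block. For the enzymes 1 of 4 is near that share and is no result about the list.

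**Figure D5:**
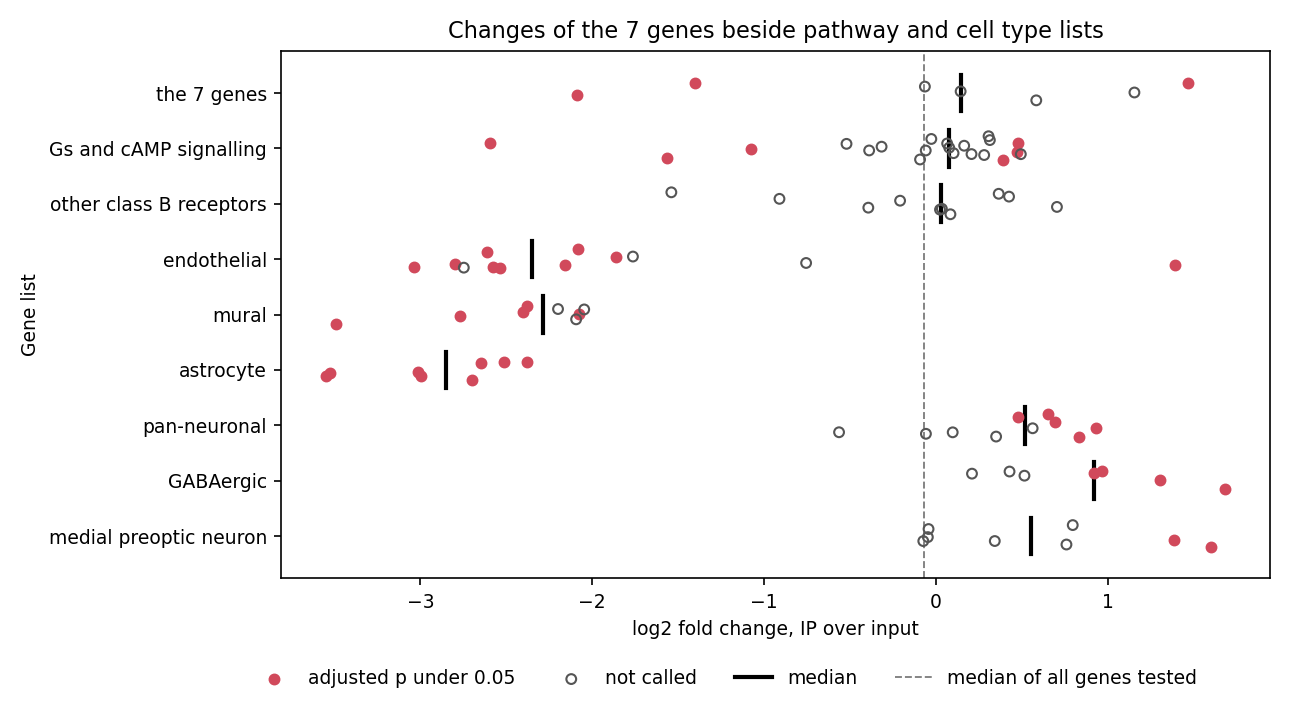
Log2 fold change of IP over input (x axis) of each tested gene, by list (y axis), with calls at an adjusted p under 0.05 filled, medians as black bars and the median of all genes tested as a dashed line. The 7 genes spread from -2.09 (Calcrl) to 1.47 (Calca), while the glial and vessel lists have medians of -2.29 and lower and the GABAergic list has one of 0.92.

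Genes with the profile most like each of the 7 were looked up among protein-coding genes with a mean of at least 1 log2 CPM. Likeness was the root mean square difference between log2 CPM profiles over the 6 libraries, after each gene's mean was taken off, so a smaller value is more alike. With 12141 candidates and 6 libraries, close profiles are found for any gene with a common pattern. Nearest to Calca were Tm2d3 and Scx (0.144 and 0.188 log2 units), and nearest to Calcb were Mcf2 and Slc17a6 (0.192 and 0.202). Nearest to Calcr were Qrfprl and Acrbp (0.139 and 0.159), and nearest to Calcrl were Kbtbd4 and Fgfrl1 (0.344 and 0.409). Nearest to Ramp1 were Cyp7b1 and Ss18 (0.0929 and 0.111), and nearest to Ramp2 were Glt8d1 and Snapc2 (0.0419 and 0.0540). Nearest to Ramp3 were Wnt9b and Tafa4 (0.277 and 0.349), which share its low values in pool 1. Wnt9b had 1.02, 20.0 and 7.62 CPM in IP and 0.560, 10.1 and 2.28 CPM in input. Calcrl and Ramp3 had the least close neighbours and Ramp2 the closest.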

How the data were processed

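Poly(A)-selected RNA of 6 libraries was sequenced as paired reads of 75 bases. The submitters' processing notes name HISAT2, featureCounts, DESeq2 and the genome mm39; versions, annotation and strand setting are not given in the sources used here. The authors deposited whole read counts per gene, a normalized signal (counts divided by a size factor per library), FPKM values, and the log2 fold changes and p-values of DESeq2, per the file headers.

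The counts were tested with edgeR 4.0.16 in R 4.3.3 (quasi-likelihood test, TMM scaling, filterByExpr by group, two-sided, Benjamini-Hochberg over all 18640 genes tested, adjusted p under 0.05) and, as an alternative, DESeq2 1.42.0. The fits were tested on simulated data, which gave every gene the same relative spread beyond counting error and held no difference between pools. The SE is the log2 fold change divided by the square root of F. The authors' FPKM served for levels between genes. Same-numbered libraries come from the same pool, since input was processed in parallel from each sample. Their deviations correlated at 0.264, 0.144 and 0.102, and those of IP and input with unlike numbers at -0.22 to 0.0917. This SE includes the spread between libraries. The floor of 3 counts covers counting error only.

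The members and the lists were chosen with earlier results of these data known. Named genes are the 7 members, Pnoc, the other ligands and accessory proteins, up to 2 called genes with the smallest adjusted p per direction in each list (or the 2 most abundant), and the 2 nearest profiles per member; Prkar2a, Adcy3, Vps25, Vipr1, Vipr2, Sctr, Cpe, Kcnj8, Abcc9, Myh11 and the thalamic list were named after their values were seen. Alternatives were DESeq2, other scalings and filters, the block, and each library or pool left out. In the authors' deposited table the adjusted p was 0.000394 for Calca, 0.00733 for Calcrl, 4.2e-08 for Ramp1 and 0.53 for Ramp3.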

Additional observations from a re-analysis of the deposited data

How the results depend on the processing

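Ramp1 kept its call under DESeq2, the other scalings and filters, the replicate block and each library left out (-1.54 to -1.19). With the replicate as a block (pairing by pool), Ramp3 passed at 1.21, so 2 members were higher, and Calcb turned to 0.10. With the block and without pool 1, 2 or 3, Ramp3 gave 1.27, 1.38 and 1.02, Calcr passed without pool 2 (1.01), Ramp2 turned to -0.060 without pool 1 and Calcb to 0.41 without pool 3. The fits with the block and without a pool were added after the values were seen, and their p-values lean on spread taken from other genes. The block changed no other member's call. Without both libraries of pool 1, Calca lost its call (1.16, so 0 members were higher), Ramp2 turned to -0.078, Slc17a7 turned to 0.78 and 1 pathway gene was higher. Without pool 2, Calcrl lost its call (-1.92, 1 member lower), 1508 genes of the table were higher and 2095 lower and 0 pathway genes were higher. Without pool 3, Calca (1.59), Calcrl (-1.77) and Ramp1 (-1.45) lost theirs, leaving 0 members higher and 0 lower, 133 genes higher and 742 lower and 0 pathway genes in either direction; Calcb turned to 0.13 and Gpr182 to 0.12. These fits have 2 libraries per group, and the cause was not tested. Library totals alone gave 0 pathway genes higher, and split all calls into 1734 higher and 3678 lower, so that 32.0% were higher in place of 42.9%.

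Over the fits without 1 library, Calca ranged from 1.29 to 1.78, Calcb from -0.57 to 0.50, Calcr from 0.13 to 0.85, Calcrl from -2.89 to -1.61, Ramp2 from -0.057 to 0.44 and Ramp3 from 0.40 to 2.30. Members higher ranged from 0 to 1 and lower from 1 to 2, all genes higher from 1417 to 2630 and lower from 2035 to 3080, and pathway genes higher from 0 to 3 and lower from 1 to 4. The difference in RAMP share, IP minus input in percentage points, ranged from -34.0 to -11.5 for Ramp1, -2.62 to 1.69 for Ramp2 and 10.3 to 35.9 for Ramp3, and that of Calcr from 8.06 to 15.1. Iapp ranged from -0.23 to 4.38, Gpr182 from -0.64 to 0.061, Slc17a6 from -0.18 to 0.56 and Slc17a7 from -1.67 to 0.44. Calcb, with at most 15 counts per library, is limited by depth.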

Other observations

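Vipr2, a class B receptor of the peptides VIP and PACAP, varied between the pools in the same order as Ramp3, with pool 1 lowest and pool 2 highest. It had 1.51, 16.4 and 6.11 CPM in IP replicates 1 to 3 and 1.74, 15.0 and 6.69 CPM in input. With the pool as a block its log2 fold change was -0.06 ± 0.23 (SE), against 1.21 ± 0.16 (SE) for Ramp3. The difference between these changes was not tested, and Vipr2 was named after its values were seen.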
